A study of Oryza sativa with 16 samples.

Results

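The effect of low temperature that was common to 2 stages of seed filling was examined in whole seeds of the japonica rice cultivar Zhonghua 11 (ZH). Of the 16 arrays of the experiment, 8 were compared. The 4 cold arrays came from plants that were raised in a phytotron with days of 28°C and nights of 22°C and then spent 2 days at 14°C, starting 4 or 10 days past fertilization (DAF, days after fertilization), and are named 4D-2DC and 10D-2DC. The 4 control arrays, named 6D and 12D, came from seeds of the same age, 6 or 12 DAF, that had no low temperature treatment. Each of these groups had 2 arrays, labelled biological replicates 1 and 2 and called here the first and the second array of a group. The labels do not say whether the replicates came from separate plants, so p-values measure only the spread between these samples. Whole plants were cooled, and a whole seed holds maternal layers, endosperm and embryo together. The other 8 arrays were ZH seeds at 4 and 10 DAF and seeds of the cultivar Hanfeng (HF) at 4 DAF with and without the treatment.

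Rice is a plant of warm climates, and the grain is filled over a few weeks in which sucrose from the leaves becomes starch and storage protein in the endosperm. Chilling of plants is known to raise dehydrins and other protective proteins through the CBF/DREB transcription factors and abscisic acid (ABA), to change calcium signals and redox enzymes, and to slow growth that depends on auxin and gibberellin. Small heat shock proteins are chaperones that hold unfolding proteins in solution, they are switched on by the heat stress transcription factors (HSFs), and many of them are also made during seed maturation.

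Each value below is log2(signal + 16) of 1 probe set, and each difference is cold minus control, averaged over both stages, with stage and replicate number as factors in a limma fit. Differences are followed by their standard error. A fold change on this scale understates the change of weak probe sets. The values of 4 arrays are given in 1 order throughout, which is the first and the second array at 6 DAF and then the first and the second at 12 DAF. The threshold named in the study's methods, an unadjusted p under 0.05 together with a difference over 2-fold, is called the threshold here. A gene that left the threshold under another setting missed either the p or the 2-fold part of it there.

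No probe set of the 34331 tested passed an adjusted p of 0.05 in limma, and the smallest adjusted p was 0.574. At an unadjusted p under 0.05 there were 2486 probe sets, or 7.24%. The threshold was passed by 958 probe sets higher in the cold (2.79%) and 899 lower (2.62%), together 5.41%. Their median differences were 1.32 and -1.28, and the extremes were 3.58 and -3.62. The sign was the same in all 4 pairs of a cold array and its control for 77.5% of the higher and 80.2% of the lower probe sets, beside 18.5% of all tested probe sets with 1 sign in every pair. Probe sets past the threshold were picked on these same pairs, so a higher share with 1 sign follows from that choice. Pair differences from different pairs correlated across probe sets at r = 0.03 to 0.20, a description with no test. The split between higher and lower depended on the scaling, and was 746 higher and 1267 lower with median centring of the arrays, which moved the median of all tested probe sets from -0.00 to -0.10. List medians within 0.1 of 0 have no settled sign, and some farther from 0 changed sign when 1 array was left out. The values given from here on are therefore descriptions of which genes led the comparison, and none passed adjustment over all probe sets, with adjusted p-values of 0.574 to 0.709 for the genes named below.

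**Figure D1:**
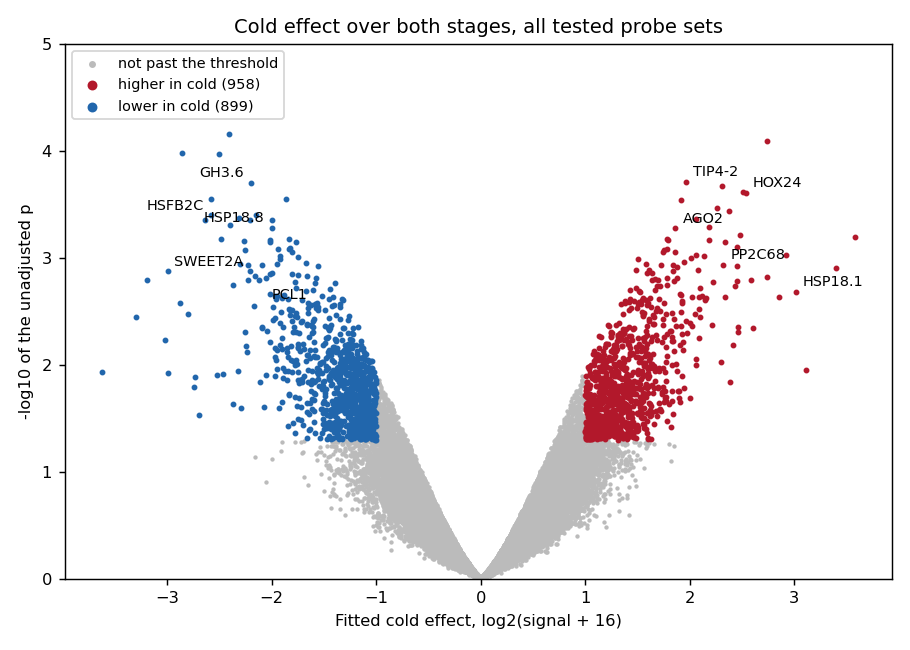
Cold minus control difference in log2(signal + 16) of ZH seeds (horizontal axis) against -log10 of the unadjusted limma p-value (vertical axis), 1 point per tested probe set, with the probe sets past the threshold coloured and the leading named genes labelled. The 958 higher and 899 lower probe sets lie on both sides of 0 (746 higher and 1267 lower with median centring), and HSP18.1 at 3.01 and HSFB2C at -2.58 are among the named genes farthest out.

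The makeup of the seeds was read from marker genes. The 7 tested markers of green maternal tissue, genes of the photosynthetic apparatus, all had fitted differences under 0, with a median of -0.87 beside -0.02 over the 16014 genes with 1 probe set each. Their summed signal was 10506, 40482, 2046.9 and 29922 in the cold arrays and 16423, 63606, 4630.7 and 52620 in the controls, so that it was lower in the cold in each of the 4 pairs, although the range over the cold arrays overlapped that of the controls. Fewer green cells and less of this RNA per cell cannot be told apart in whole seeds. The 12 endosperm markers had a median of -0.33, with 10 of them under 0, and the 8 embryo markers a median of 0.45, with 6 above 0. The pairs disagreed, with 1, 2, 12 and 4 of the endosperm markers and 3, 5, 7 and 8 of the embryo markers above 0. The summed endosperm signal ran from 220790 to 1879400 in the cold and from 297090 to 1422700 in the controls, and the summed embryo signal from 7876.9 to 305620 and from 10532 to 180300, so these ranges overlapped widely. Of 2 anther markers, OsC4 was higher past the threshold at 1.29 ± 0.41, with low summed signals of 101 to 483 and 41.3 to 323 for the pair of genes. No marker of the 4 lists lay at or under a signal of 16 on every array of a group. The second arrays had lower median signals (56.7 to 60.1) than the first (115 to 157), in cold and control alike.

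The leading named genes with the largest difference in each direction, HSP18.1 and HSFB2C, belonged to the heat shock lists. Of 17 tested small heat shock protein genes, 7 were higher past the threshold (41.2%) and 2 lower (11.8%), beside 2.53% higher and 2.51% lower of all genes, and the median of the list was 0.64. The shares given in brackets for the lists that follow are read against these 2 values, and in a short list 1 gene moves the share by several percent. Leaving out 1 array at a time gave 3 to 7 higher and 1 to 4 lower. The medians of the pairs were -0.14 and 0.31 at 6 DAF and 1.18 and 1.16 at 12 DAF. In these pairs 8, 10, 14 and 12 of the 17 genes lay above 0, so the list median came mostly from 12 DAF. HSP18.1 (LOC4332361), a cytosolic class I protein, was at 9.26, 10.27, 14.41 and 13.88 in the cold and at 5.19, 8.39, 11.95 and 10.23 in the controls. Each cold array lay above its own control, while both cold arrays at 6 DAF lay within the range of the controls. The difference was 3.01 ± 0.70 (8.07-fold), and a second set of probes to this gene gave 1.67 ± 0.63. HSP18.6 (LOC4330933) stood at 8.87, 10.63, 13.04 and 13.30 against 7.91, 8.59, 10.96 and 10.02, a difference of 2.09 ± 0.49, and its other probe set gave 1.87 ± 0.57. HSP17.4 (LOC4332360) was at 10.18, 10.67, 12.87 and 13.26 against 9.27, 9.48, 10.39 and 9.72, a difference of 2.03 ± 0.48. For these 3 genes every pair had the same sign, the cold arrays at 12 DAF were the highest, and the cold range overlapped the control range through the 12D arrays. HSP18.1 and HSP17.4 belong to a group of class I genes of similar sequence, and probes to one copy may also read another.

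The other small heat shock protein genes past the threshold, named after their values were seen, were HSP16.9B at 1.89 ± 0.65, HSP18.0 at 1.46 ± 0.58, HSP17.7 at 1.25 ± 0.43 and HSP26.2 at 1.23 ± 0.40. Each of these 4 left the threshold without 1 or another array. HSP16.9B was then at 1.71 without the second 10D-2DC array, 1.18 without the second 12D array and 1.47 without the second 4D-2DC array. HSP17.7 was then at 1.07 and 1.08 without the first or the second 10D-2DC array and at 0.86 without the second 12D array. HSP26.2 was then at 0.95, 1.06 and 1.09 without the second array of 10D-2DC, 12D or 6D. HSP18.0 did so without either 10D-2DC array, either 12D array or the first 6D array (0.87 to 1.51), and its other probe sets were at -0.75 and -0.29. HSP18.8 (LOC4343386) was at 5.06, 7.95, 6.49 and 7.75 in the cold and at 7.09, 9.80, 8.07 and 10.27 in the controls, lower in every pair by -2.0 ± 0.37. HSP22.3, also named afterwards, was lower at -1.15 ± 0.34, and at -0.95, under 2-fold, without the first 4D-2DC array. The list thus held called members on both sides, with more of them higher.

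**Figure D2:**
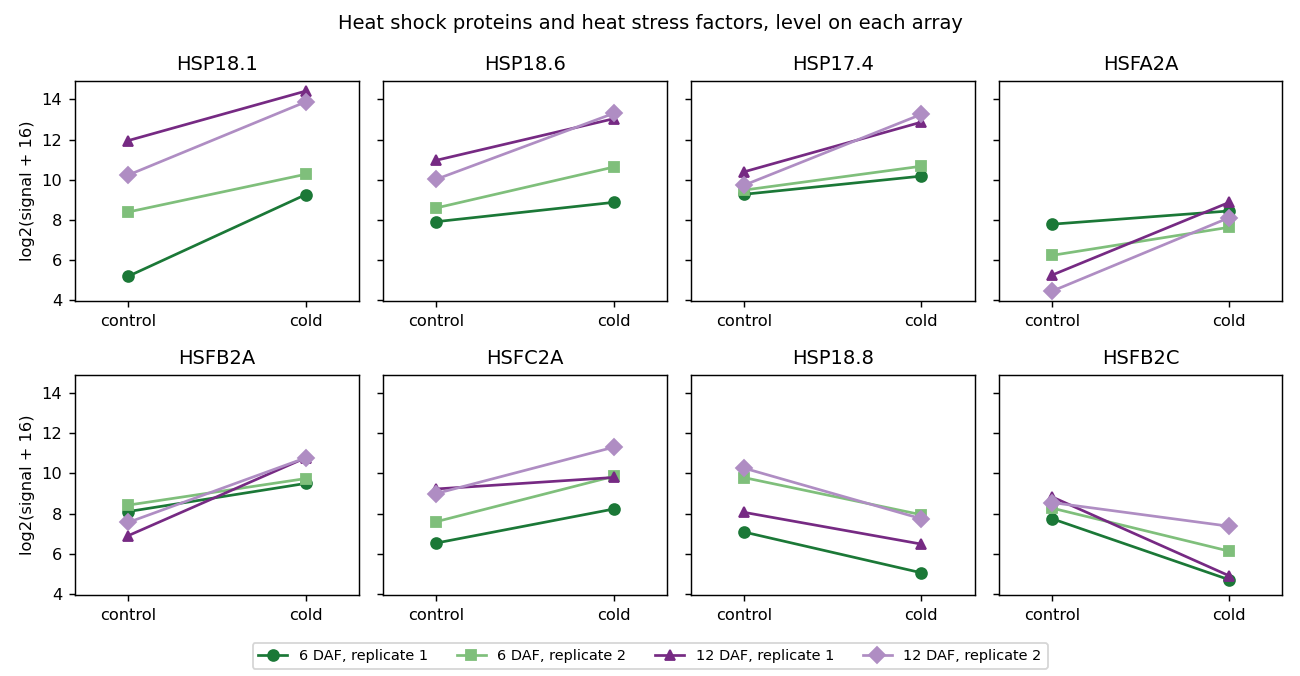
Levels of 8 heat shock genes, log2(signal + 16) on the vertical axis, with 1 point per array for cold (4 arrays) and control (4 arrays) and a line joining each cold array to the control of the same stage and replicate number. For HSP18.1, HSP18.6, HSP17.4, HSFA2A, HSFB2A and HSFC2A every line runs higher in the cold, and for HSP18.8 and HSFB2C every line runs lower.

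Among the 20 tested HSF genes, which encode the activators and repressors of heat shock genes, 4 were higher past the threshold (20%) and 0 lower, with a median of 0.05, and 3 to 5 were higher when 1 array was left out. HSFA2A (LOC4334080) was at 8.44, 7.63, 8.87 and 8.11 in the cold and at 7.78, 6.23, 5.24 and 4.44 in the controls. All 4 cold values lay above 3 of the 4 controls, and the first 6D array lay within the cold range. The difference was 2.34 ± 0.55, and its other probe sets gave 2.42 ± 0.68 and 1.09 ± 0.66. HSFB2A (LOC4336701) was at 9.51, 9.75, 10.79 and 10.78 against 8.11, 8.43, 6.91 and 7.57, with no overlap between groups, and differed by 2.45 ± 0.49 (5.48-fold), its second probe set by 2.09 ± 0.51. HSFC2A (LOC4328809) was at 8.23, 9.86, 9.80 and 11.31 against 6.54, 7.60, 9.23 and 9.0, a difference of 1.71 ± 0.40. Those 3 genes were higher in the cold in every pair. The rice gene annotated HSFB2B was also higher, at 1.65 ± 0.57, but left the threshold without the first 10D-2DC, the second 12D, the second 4D-2DC or the first 6D array (1.16 to 1.56). The study uses the name HSFB2B for the Arabidopsis homolog of a rice gene on another chromosome, so this is not the gene it names. One probe set of HSFB2C (LOC4347637) was lower without overlap, at 4.71, 6.13, 4.91 and 7.37 against 7.75, 8.28, 8.84 and 8.55, a difference of -2.58 ± 0.46. Its other 2 probe sets were at 0.18 and 0.00, so the probe sets of this gene disagreed. Of 16 large chaperones 1 was past the threshold (6.25%), CLPB1, the HSP101 disaggregase, at 1.03 ± 0.36. It left it without either 10D-2DC array or either 12D array (0.86 to 0.98) and with median centring (0.94) or quantile normalization (0.97), and the median of the large chaperones was -0.06. In all 4 pairs 1 of the 16 large chaperones was higher and 4 were lower, beside 18.5% of all tested probe sets with 1 sign throughout. Among the 4 was DJC79 at -0.67 ± 0.31, under 2-fold.

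Of 12 tested genes for dehydrins and related protective proteins, which are marks of cold acclimation, 2 were higher past the threshold (16.7%), 0 were lower and 10 had differences above 0, with a median of 0.53, and 0 to 3 were higher when 1 array was left out. The medians of the pairs were 0.03 and 0.36 at 6 DAF and 0.84 and 0.88 at 12 DAF. Most of the embryo markers (EM, LEA19, RAB21, RAB16B, RAB16C and RAB16D) were members of this list, the medians of the embryo markers in the same pairs were -0.34, 0.56, 0.75 and 0.39, and the part of embryo RNA in the list was not tested. The membrane protein gene PM19L was higher at 1.14 ± 0.41, in 3 of 4 pairs, and its other probe set was at 0.13. It left the threshold without either 10D-2DC array, the second 12D, the second 4D-2DC or the second 6D array (0.89 to 1.09). The lectin gene salT, a salt and drought marker, was higher at 1.11 ± 0.37 and left the threshold without the first 10D-2DC array (0.87), without the first 12D array (0.90) and with no replicate block. Its other probe set was at -0.13. LIP9, a dehydrin gene, was at 0.83 ± 0.40. Of 13 CBF/DREB genes and other cold regulators 1 was higher (7.69%) and 0 lower. It was DREB2D, higher at 1.17 ± 0.39, without overlap between groups, at 7.43, 7.65, 8.02 and 8.97 against 7.04, 6.02, 7.15 and 7.18. It lost the threshold without the second 10D-2DC array (0.90) and without the second 6D array (0.94). With quantile normalization PM19L (0.97) and DREB2D (0.99) were just under 2-fold. DREB1A, a CBF gene whose overexpression gives cold tolerance, had a difference of 0.95 ± 0.34, with each cold array above its control, which passed 2-fold with quantile normalization (1.05). OsMYB2, also of this list, was lower in every pair at -0.88 ± 0.39, under 2-fold. Of the 13 genes 2 were higher and 4 lower in all 4 pairs, and their median was -0.07. Of all tested probe sets 18.5% had 1 sign in every pair.

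In the list for ABA synthesis and signaling 3 of 24 genes were higher (12.5%) and 0 lower, with a median of -0.05, and 2 to 5 were higher when 1 array was left out. The higher genes were 2 phosphatases of group A, which restrain ABA signaling and are themselves known ABA responses, and a kinase. PP2C68 was at 8.36, 11.21, 10.67 and 12.41 in the cold and at 7.86, 8.56, 8.0 and 8.96 in the controls. The smallest gap was that of the first arrays at 6 DAF, and only the first 4D-2DC array lay within the control range. The difference was 2.32 ± 0.49. PP2C30 (LOC4332374) was higher at 1.65 ± 0.43, at 10.53, 12.24, 12.28 and 13.04 against 10.25, 10.03, 10.69 and 10.52. SAPK1, a SnRK2-type kinase, was higher at 1.32 ± 0.41, but at 0.92 without the first 6D array, and it left the threshold with no replicate block.

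Genes of auxin lay on both sides. Of 42 genes for Aux/IAA repressors and auxin response factors (ARFs), 33 had differences above 0 and 9 under 0, beside 48.5% and 51.5% of all genes, and their median was 0.26. The medians of the pairs were 0.15 and 0.78 at 6 DAF and -0.05 and 0.22 at 12 DAF, with 25, 37, 20 and 25 of the 42 genes above 0, so the second arrays at 6 DAF stood out. The median of the list was 0.11 without the second 4D-2DC array and at most 0.37 without another. The threshold was passed by 4 higher genes (9.52%) and 1 lower (2.38%), and by 3 to 4 and 0 to 2 when 1 array was left out. IAA12 was higher at 1.68 ± 0.52, at 7.69, 8.78, 7.84 and 7.52 against 4.88, 8.04, 5.47 and 6.75, and ARF10 at 1.56 ± 0.50. IAA15 was higher at 1.10 ± 0.32, and IAA20, named after its value was seen, at 1.05 ± 0.38. With no replicate block ARF10, IAA15 and IAA20 left the threshold. IAA15 was at 0.95 without the first 6D array, and IAA20 left the threshold without the first 10D-2DC, either 12D or the second 4D-2DC array (0.74 to 1.05) and with median centring (0.96) or quantile normalization (0.85). IAA4, also named afterwards, was lower at -1.11 ± 0.36, but -0.97 and -0.86 without the first 10D-2DC or the first 6D array, and its other probe set was at 0.20. The green markers lay the other way, and the part of tissue makeup in the auxin values was not tested.

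**Figure D3:**
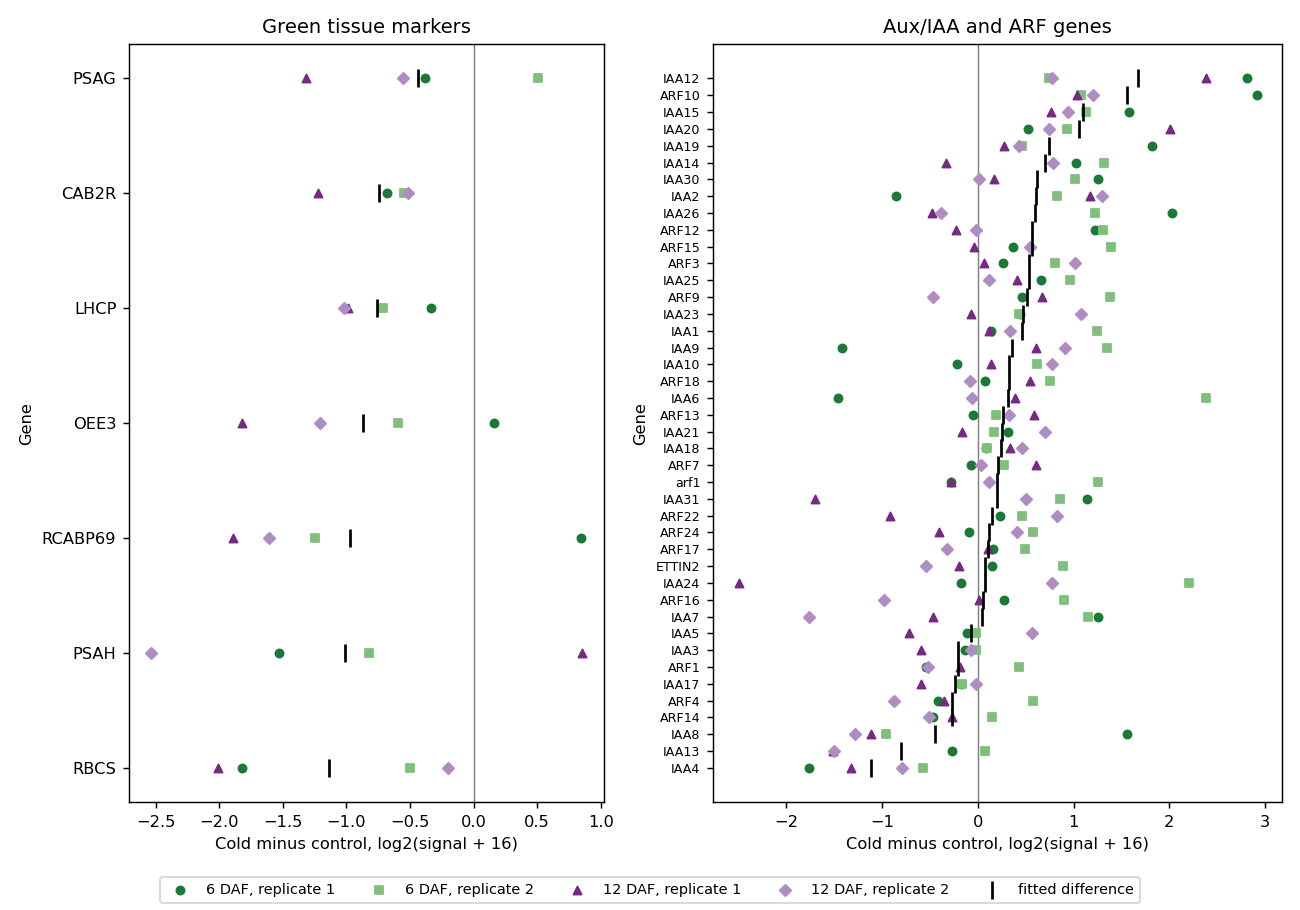
Cold minus control differences in log2(signal + 16), for the 7 markers of green maternal tissue (left) and the 42 Aux/IAA and ARF genes (right), with 1 point for each of the 4 pairs of arrays and a bar for the fitted difference of a gene. The bars of all 7 green markers lie under 0, with a median of -0.87, and 33 of the 42 auxin bars lie above 0, with a median over the list of 0.26.

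On the lower side GH3.6 (LOC4337780), of the family of enzymes that join auxin or jasmonate to amino acids, was at 7.44, 7.30, 6.09 and 5.78 in the cold and at 9.03, 9.03, 8.76 and 8.57 in the controls. Every cold array lay under every control array, and both replicates of a group were close to each other. The difference was -2.19 ± 0.36 (4.57-fold). ILL8, of the family of hydrolases that free auxin from amino acids, was lower at -1.85 ± 0.60 in 3 of 4 pairs, and left the threshold without the second 4D-2DC array (-1.41). These were the 2 of 23 genes for auxin synthesis, conjugation and transport that passed the threshold (8.7%), and 0 were higher. ASA1 (LOC4334640), an anthranilate synthase subunit at the entry to tryptophan synthesis, was at 11.43, 10.68, 12.04 and 11.02 against 13.15, 12.02, 13.15 and 12.19, a difference of -1.33 ± 0.31. It was lower in every pair.

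For gibberellin, 1 of 13 genes was higher (7.69%) and 0 lower. GA20OX2 (LOC4325003), the gibberellin 20-oxidase of the semidwarf locus, was at 7.82, 7.67, 8.11 and 8.34 in the cold and at 5.23, 7.10, 4.62 and 6.59 in the controls. The groups did not overlap, the cold arrays lay close together, and the pairs of the first arrays differed more than those of the second. The difference was 2.10 ± 0.48, with 3.04 within the first and 1.15 within the second arrays. LOGL3, of the family of cytokinin-activating enzymes, was higher at 1.82 ± 0.49.

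**Figure D4:**
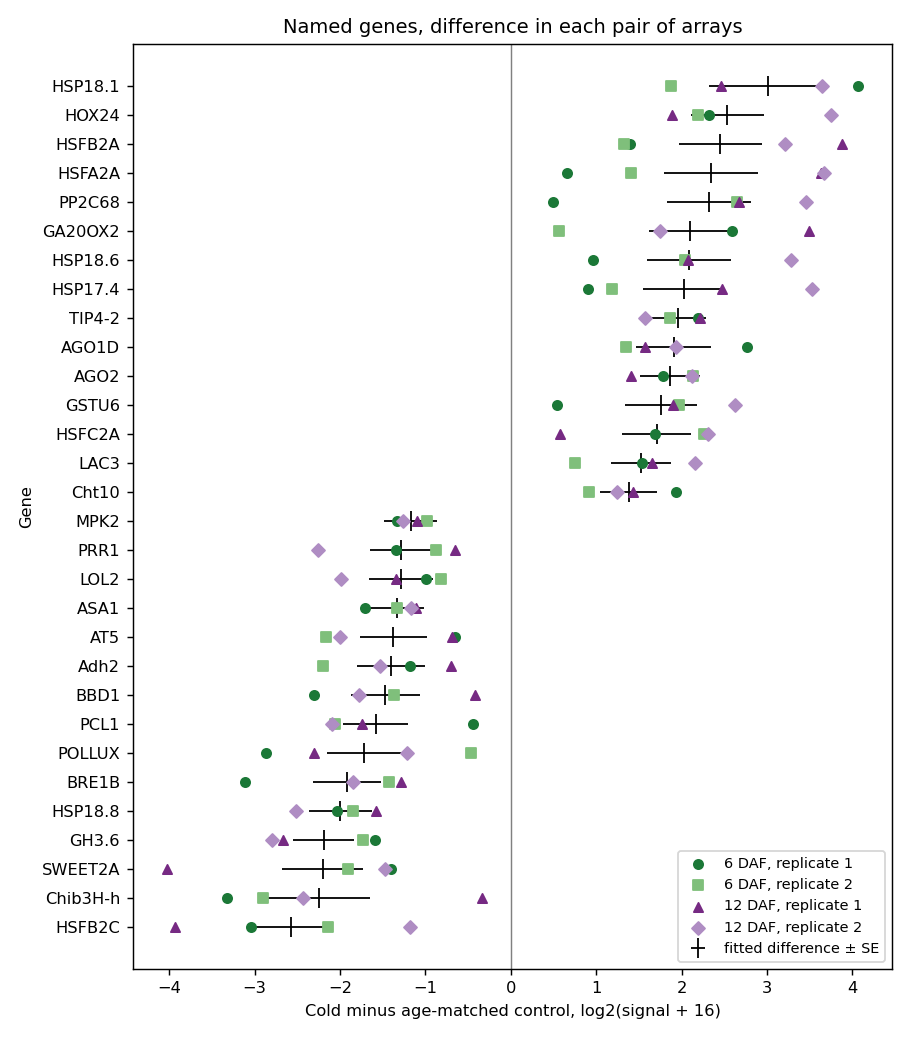
Cold minus control differences in log2(signal + 16) of the 30 leading named genes, 15 higher and 15 lower, with 1 small point for each of the 4 pairs of arrays and the fitted difference with its standard error. In every one of the 30 genes the 4 pair differences have 1 sign, which the rule that chose them required, and the pairs spread widely for HSP18.1, GA20OX2 and HSFA2A and little for MPK2 and ASA1.

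Among 34 homeobox genes 3 were higher (8.82%) and 1 lower (2.94%), with 23 above 0 and a median of 0.23, and 2 to 6 were higher when 1 array was left out. HOX24 (LOC4330155), an HD-Zip transcription factor, was at 7.15, 8.39, 8.01 and 9.23 in the cold and at 4.83, 6.19, 6.12 and 5.49 in the controls. All cold arrays lay above all controls, and the difference was 2.54 ± 0.43 (5.8-fold). HOX4, of the same family, was higher at 1.12 ± 0.35, but at 0.90 without the first 10D-2DC array, and it left the threshold with no replicate block. OSH1, a KNOX gene of the shoot meristem and an embryo marker, was at 1.05 ± 0.42 and left the threshold without the second 12D, either 4D-2DC or either 6D array (0.76 to 1.15), and with median centring or quantile normalization. Its other probe set was at 0.51. WOX11, a regulator of crown roots named here after its value was seen, was lower at -1.79 ± 0.72. Its difference was -3.59 within the first arrays and 0.00 within the second, and it left the threshold without any 1 of the 4 first arrays (-1.11 to -1.58). The NAC gene NAC071 was higher at 1.32 ± 0.34, in every pair.

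In RNA silencing 2 of 23 genes were higher (8.7%) and 0 lower, with a median of 0.19, and 2 to 3 were higher when 1 array was left out. AGO2 (LOC4336991), an argonaute known from antiviral defence in plants, was at 11.98, 12.68, 10.74 and 12.43 in the cold and at 10.20, 10.54, 9.34 and 10.30 in the controls. The groups did not overlap and each pair differed by over 2-fold. The difference was 1.86 ± 0.35 (3.64-fold). AGO1D (LOC4342138), 1 of the AGO1 copies of rice, was at 8.11, 10.77, 8.81 and 10.80 against 5.34, 9.42, 7.24 and 8.86, higher in every pair by 1.91 ± 0.44, and left the threshold with no replicate block. AGO18 was at 0.98 ± 0.41, just under 2-fold. For chromatin, 14 of 20 genes were under 0 with a median of -0.24, 0 were higher and 1 lower (5.0%). The DNA methyltransferase gene MET1B was lower at -1.01 ± 0.40, and left the threshold without the first 10D-2DC, the second 12D, the second 4D-2DC or the first 6D array (-0.79 to -0.86), and with quantile normalization (-0.93) or no replicate block. BRE1B (LOC4349420, also HUB2), an E3 ligase for monoubiquitination of histone H2B, was at 7.28, 7.16, 8.39 and 7.55 against 10.39, 8.59, 9.67 and 9.39. It was lower without overlap by -1.92 ± 0.40, and its second probe set was at -0.58 ± 0.39.

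Of 14 genes of the circadian clock and flowering time 0 were higher and 2 lower (14.3%), with a median of -0.15. With 1 array left out this median lay between -0.14 and 0.07, so its sign was not settled. PCL1 (LOC4326391), the rice counterpart of an evening gene of the Arabidopsis clock, was at 9.07, 7.31, 8.19 and 7.29 in the cold and at 9.52, 9.37, 9.94 and 9.38 in the controls, a difference of -1.58 ± 0.38. PRR1 (LOC4330000), the counterpart of the evening gene TOC1, was at 8.84, 8.73, 9.16 and 7.97 against 10.18, 9.62, 9.81 and 10.23, a difference of -1.28 ± 0.37. Neither gene overlapped between cold and control. The hour of harvest is not given in the labels.

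Of 42 genes for sucrose metabolism and sugar transport 1 was higher (2.38%) and 3 lower (7.14%), with a median of -0.02, and 0 to 3 and 1 to 5 were called when 1 array was left out. SWEET2A (LOC4326868), a sugar transporter of the SWEET family, was at 7.11, 8.88, 6.71 and 9.93 in the cold and at 8.52, 10.79, 10.73 and 11.41 in the controls. It was lower in every pair, most in the first arrays at 12 DAF, and the groups overlapped because the second arrays were higher throughout. The difference was -2.20 ± 0.47 (4.6-fold). The hexokinase gene HXK4 was lower at -1.49 ± 0.51, but left the threshold without the first 10D-2DC, either 12D or the second 4D-2DC array (-0.97 to -1.37). CIN2, the cell wall invertase of the grain-filling locus GIF1, named after its value was seen, was lower at -1.43 ± 0.54 in 3 of 4 pairs. It left the threshold without either 10D-2DC, either 12D or the second 4D-2DC array (-0.99 to -1.47), and with no replicate block. The sucrose transporter gene SUT5 was higher at 1.41 ± 0.45, and left the threshold without the second 12D array (1.18) and without the second 4D-2DC array (1.19).

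Of 13 genes of starch synthesis and breakdown 10 lay under 0, with a median of -0.29, and 1 was higher and 1 lower (7.69% each). The starch synthase gene SS2 was higher at 1.10 ± 0.33, at 0.99 without the first 12D array, and its other probe set was at -0.26. SS1, another starch synthase gene, was lower at -1.14 ± 0.47, at 13.41, 12.58, 13.84 and 11.32 against 14.15, 13.10, 14.21 and 14.25. It left the threshold without the second 10D-2DC, the second 12D, the first 4D-2DC or the second 6D array (-0.65 to -1.25), and with quantile normalization or no replicate block. Of 12 storage protein genes 9 lay under 0, with a median of -0.33, and 1 was higher (8.33%) and 0 lower. Their pair medians were -1.04 and -0.38 at 6 DAF and 0.40 and -0.04 at 12 DAF. In these pairs 1, 3, 11 and 6 of the 12 genes lay above 0, so the pairs did not share a sign. The weak glutelin probe set GLUB-4 was higher at 1.29 ± 0.51, above the array median on 1 of 8 arrays, and left the threshold without either 12D, either 6D, the first 10D-2DC or the second 4D-2DC array (0.85 to 1.39) and with no replicate block. Of 20 genes of glycolysis and fermentation 0 were higher and 1 lower (5.0%). Adh2 (LOC4350054), an alcohol dehydrogenase, was at 9.55, 10.31, 11.60 and 11.42 in the cold and at 10.73, 12.51, 12.31 and 12.95 in the controls, lower in every pair by -1.40 ± 0.40. The endosperm markers, most of them genes of these lists, had the median of -0.33 given above, and their part in these values was not tested.

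Photosynthesis and chlorophyll genes had a median of -0.42, with 15 of 24 under 0, 0 higher and 3 lower (12.5%). PORA (LOC4337415), a protochlorophyllide reductase, was at 4.45, 7.37, 4.81 and 5.75 in the cold and at 6.47, 10.04, 4.58 and 8.72 in the controls. It was lower in 3 of 4 pairs and the second array of each group lay above the first. The difference was -1.86 ± 0.54, not past the threshold with no replicate block. RBCS, a small subunit of Rubisco, was lower in every pair at -1.13 ± 0.42, and left the threshold without the first array of any of the 4 groups (-0.83 to -1.05). Its other probe sets were at 0.39 and -0.19. NYC1, a chlorophyll b reductase named after its value was seen, was lower at -1.18 ± 0.50, and left the threshold without either 10D-2DC, either 12D, the first 4D-2DC or the first 6D array (-0.91 to -1.20). With no replicate block 0 genes of this list passed. These genes share their expression in green tissue with the markers, whose summed signal was lower in each pair. RBCS is itself 1 of those 7 markers, of which 3 were lower in all 4 pairs, beside 18.5% of all tested probe sets with 1 sign throughout. How far tissue makeup entered was not tested.

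For transport across membranes, 1 of 22 aquaporin genes was higher and 1 lower (4.55% each), with a median of -0.42 and 14 under 0. With 1 array left out the median lay between -0.39 and -0.21, the last without the first 4D-2DC array, and the medians of the pairs were -0.66 and -0.24 at 6 DAF and -0.09 and -0.02 at 12 DAF. TIP4-2 (LOC4324277), an aquaporin of the vacuolar membrane, was at 7.87, 10.59, 8.21 and 10.59 in the cold and at 5.68, 8.72, 5.99 and 9.01 in the controls. Every pair differed by 1.58 to 2.22, and the overlap came from the higher level of the second arrays. The difference was 1.96 ± 0.32 (3.9-fold), and it was not past the threshold with no replicate block. PIP2-4, an aquaporin of the plasma membrane, was lower at -1.34 ± 0.54 in 3 of 4 pairs. It left the threshold without the second 10D-2DC, either 4D-2DC or either 6D array (-0.90 to -1.29) and with no replicate block. Of 20 potassium transport genes 15 lay above 0, with a median of 0.50, and 2 were higher (10.0%) and 0 lower, with 1 to 5 higher when 1 array was left out. HAK17, a potassium transporter, was higher at 1.38 ± 0.37, and the inward channel AKT1 at 1.07 ± 0.31, both without overlap between groups. Both left the threshold in the fit of all 16 arrays, and the other probe set of HAK17 was at 0.54. AKT1 was at 0.98 without the first 10D-2DC array and at 1.0, just under 2-fold, without the first 12D array, and at 0.98 with median centring. The copper transporter gene COPT1 (1.44 ± 0.42) and the phosphate transporter gene PHT1-8 (1.74 ± 0.45, not past the threshold with no replicate block) were also higher in every pair, and the other probe set of PHT1-8 was at 0.79.

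Of 82 genes for calcium sensors, kinases and pumps 5 were higher (6.1%) and 0 lower, with 50 above 0 and a median of 0.10, and 3 to 7 were higher when 1 array was left out. They were the calmodulin-like genes CML17 (1.21 ± 0.37), CML1 (1.16 ± 0.45) and CML24 (1.44 ± 0.56), the kinase gene CPK9 (1.23 ± 0.38) and the calcium pump gene ACA8 (1.37 ± 0.48). CML1 and CML24 were named after their values were seen. All 5 left the threshold without at least 1 array. CML17 did so without the second 6D array (0.98), and CPK9 without the first 10D-2DC or the first 12D array (0.95 and 0.98). ACA8 did so without the second 12D, the second 4D-2DC or the first 6D array (1.0 to 1.11), and CML1 without the first array of any group or the second 6D array (0.76 to 1.19). CML24 did so without the second 10D-2DC, the second 12D, the second 4D-2DC or either 6D array (0.99 to 1.36), and with quantile normalization. ACA8 and CML1 also left it with no replicate block, and the other probe set of ACA8 was at -0.19. Of 25 MAP kinase genes 19 lay under 0, with a median of -0.24, and 0 were higher and 1 lower (4.0%). The medians of the pairs were -0.02 and 0.16 at 6 DAF and -0.46 and -0.59 at 12 DAF. In these pairs 12, 18, 9 and 5 of the 25 genes lay above 0, so the list median came mostly from 12 DAF. MPK2 (LOC4344698) was at 10.84, 10.02, 11.31 and 10.24 in the cold and at 12.17, 11.01, 12.41 and 11.50 in the controls, lower in every pair by -1.17 ± 0.31.

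Among 58 peroxide and redox genes 2 were higher (3.45%) and 0 lower, with a median of 0.05. GSTU6 (LOC4349207), a glutathione S-transferase of the tau class, was at 9.68, 12.00, 11.43 and 12.59 in the cold and at 9.14, 10.03, 9.53 and 9.97 in the controls. The first 4D-2DC array lay within the control range, and the other cold arrays above it. The difference was 1.75 ± 0.42, and the second probe set of this gene was at 0.55 ± 0.58. AOX1, a mitochondrial alternative oxidase, was higher at 1.41 ± 0.48 in 3 of 4 pairs, and left the threshold without the second array of any of the 4 groups (1.04 to 1.28). The copper oxidase gene LAC3 (LOC4327522), a laccase, was higher in every pair at 1.52 ± 0.35. Cyclins, cyclin-dependent kinases and other cell cycle genes had 0 calls among 69, with 43 under 0 and a median of -0.14. This median lay between -0.19 and 0.02 with 1 array left out. The medians of the pairs were 0.18 and 0.14 at 6 DAF and -0.26 and -0.18 at 12 DAF. In these pairs 43, 43, 25 and 24 of the 69 genes lay above 0, so the stages did not share a sign.

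**Figure D5:**
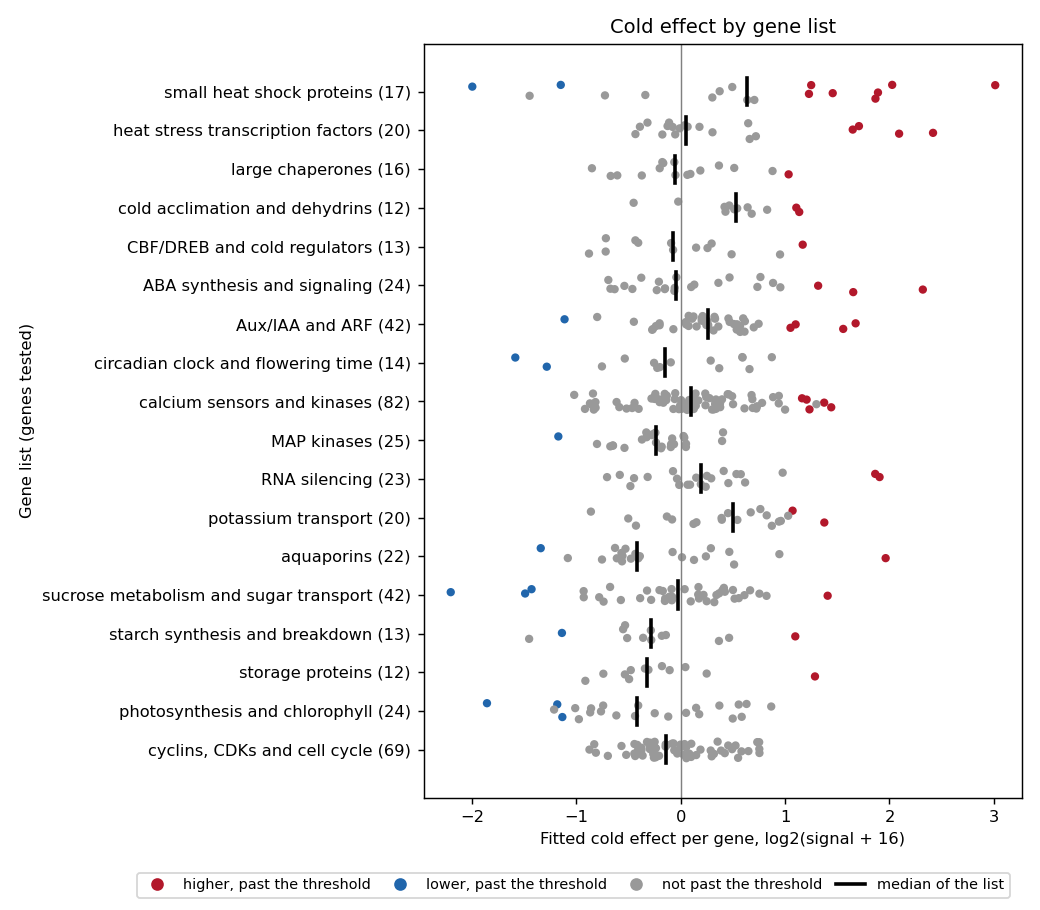
Median cold minus control difference in log2(signal + 16) of 18 gene lists (horizontal axis), with the single genes as points and those past the threshold marked. The medians of the small heat shock proteins (0.64), the cold acclimation genes (0.53) and the potassium transport genes (0.50) lie farthest above 0, and the photosynthesis genes and aquaporins, both at -0.42, farthest below, where the aquaporin median is -0.39 to -0.21 with 1 array left out.

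The remaining leading named genes belonged to none of the lists. The chitinase gene Cht10 (LOC4325148) was higher at 1.38 ± 0.33, at 7.36, 5.73, 6.87 and 5.90 against 5.42, 4.81, 5.44 and 4.66. The groups did not overlap, but the signal was weak, above the array median on 1 of 8 arrays. Another chitinase gene, Chib3H-h (LOC4351187), was lower in every pair, at 6.94, 7.40, 11.77 and 8.96 against 10.26, 10.30, 12.11 and 11.40, by -2.25 ± 0.60. BBD1 (LOC4326932), a bifunctional nuclease gene, was lower without overlap at -1.47 ± 0.40. AT5 (LOC4338283), of the BAHD acyltransferases, was lower at -1.38 ± 0.39, not past the threshold with no replicate block. LOL2 (LOC4325320), an LSD1-like zinc finger gene, was lower at -1.29 ± 0.37, but at -1.0, just under 2-fold, without the second 12D array. POLLUX (LOC4324936), an ion channel gene of root symbiosis, was lower in every pair at -1.72 ± 0.44, and its other probe set was at 1.07 ± 0.57, the other direction.

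The 5 leading probe sets on each side that carried no gene name had differences of 1.92 to 2.74 and of -1.86 to -2.85. LOC4325912 was at 7.57, 8.35, 10.71 and 11.46 in the cold and at 4.67, 4.56, 8.95 and 8.97 in the controls, a difference of 2.74 ± 0.39. LOC4329576 was higher at 2.51 ± 0.42 and LOC4332079 at 2.31 ± 0.38, both without overlap, and LOC4329370 was at 2.26 ± 0.40 with a second probe set at 0.34. A probe set that no gene was assigned to was higher at 1.92 ± 0.33. In each of these 5 every cold array lay above its own control. On the lower side a probe set with no gene had the smallest p of all tested probe sets, at 5.09, 4.15, 5.18 and 4.55 against 7.10, 6.57, 7.39 and 7.54, a difference of -2.41 ± 0.34. LOC4335022 was at -2.85 ± 0.43, with other probe sets at 0.23 and -0.13, LOC4348157 at -2.51 ± 0.37, another probe set with no gene at -2.58 ± 0.44 and LOC4338552 at -1.86 ± 0.32. What these genes encode is not stated in the annotation used here.

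The 4 HF arrays were not in the fit and were read for the same probe sets, as a description with no test. In HF the seeds at 14°C were 2 days older than their controls at 4 DAF, so cold and age cannot be told apart there. Of the 899 probe sets lower in ZH, 624 (69.4%) were also lower in cold HF seeds, beside 56.7% of all tested probe sets. Within the first arrays this was 60.6% beside 57.8% of all, and within the second 77.2% beside 50.3%. Of the 958 higher ones, 442 (46.1%) were higher in HF, beside 43.3% of all. The replicates differed here too, in that the HF difference within the second arrays was positive for 70.9% of the higher probe sets beside 49.7% of all, and within the first arrays for 36.6% beside 42.2%. In HF, GH3.6 was at -1.08, HSP18.8 at -3.09, PCL1 at -2.14 and AGO2 at 1.07. HOX24 was at 0.07 and HSFB2A at -0.25 there, and AGO1D at -1.31.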

How the data were processed

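Total RNA of whole seeds was hybridized to 1-colour Affymetrix rice genome arrays. The authors deposited 1 intensity per probe set, made with MAS5 per the labels. The values were linear, with a 2% trimmed mean of 500 on every array, and no scanner file was used here. The study's methods name GC-RMA, so the probe summary used here may differ from theirs. The number of arrays limits the precision.

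From 57381 probe sets 187 controls were removed. Those whose mean log2(signal + 16) over all 16 arrays lay above the 40th percentile were kept, which left 34331. The cold effect was fitted on 8 arrays with limma 3.58.1 in R 4.3.3 (lmFit and eBayes, two-sided) with stage and replicate number as covariates, leaving 4 residual degrees of freedom, and p-values were adjusted by Benjamini-Hochberg. The code was checked on simulated arrays with planted differences and independent normal noise. That check covered recovery of the planted differences, not noise like that of the real arrays. Replicate numbers were taken as pairs because the replicate 1 minus 2 deviations of the 4 groups correlated at r = 0.35 to 0.60. Gene names came from the platform annotation and RefSeq, which paired 22436 probe sets with 1 gene and 95 with several, and lists used the probe set of highest mean for each gene.

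The genes named were, in each direction, the 15 named genes of lowest p past the threshold with 1 sign in all 4 pairs, up to 3 members of lowest p in each list described, PRR1 and PCL1 because the study names them, HSFB2B by a match of its symbol alone, and the 5 unnamed probe sets of lowest p. The comparison, the lists and the genes were chosen with earlier results of these data known. The alternatives tried were no replicate block, a block by pair, an interaction term, all 16 arrays, pseudocounts of 1 and 64, no filter and a filter at the 60th percentile, quantile normalization, median centring, array weights, trended and robust moderation, and leaving out each array. For 22 other lists with 572 tested genes, 13 genes were higher and 7 lower past the threshold, beside 2.53% and 2.51% of all genes. Their medians ran from -0.27 to 0.38. The lowest was that of 5 WRKY genes, which lay between -0.89 and 0.49 with 1 array left out. The highest was that of 6 metallothionein genes, between 0.14 and 0.54.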

Additional observations from a re-analysis of the deposited data

Results flagged for a closer look

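In 6 of 178 groups of 4 arrays that were examined, 1 array stood apart from the other 3 by Dixon's ratio, which chance gives in about 1 in 20 groups. All 6 were control groups. DREB2D was at 6.02 in the second 6D array, with the other controls at 7.04 to 7.18, and SS1 was at 13.1 in the same array, with the others at 14.1 to 14.2. ILL8 was at 11.1 in the first 12D array and at 11.6 in each of the others, and CML24 was at 6.70 there, with the others at 4.53 to 4.83. CML17 was at 8.04 in the first 6D array, with the others at 6.65 to 6.82. One of the unnamed higher probe sets was at 4.49 in the second 12D array, with the others at 4.90 to 4.96, near the floor that the added 16 sets. Without the array that stood apart DREB2D and SS1 lost the threshold (0.94 and -1.25).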

How the results depend on the processing

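The count of probe sets at an adjusted p under 0.05 was 0 in limma under all 12 alternatives that kept every array and all 8 that left 1 out, and the smallest adjusted p was 0.103, with trended and robust moderation. The counts past the threshold moved. The higher count of 958 became 481 when the filter was set at the 60th percentile, 1805 without any filter, 561 with no replicate block and 440 with a pseudocount of 64, and the lower count of 899 became 548 with no replicate block and 514 with a pseudocount of 64. The higher share of the calls was 51.6% in the main setting and 37.1% with median centring. All 561 higher and 547 of the 548 lower probe sets called with no replicate block were also called with it. Of the 34331 tested, 1212 had an unadjusted limma p under 0.05 without the block, beside 2486 with it. Leaving out 1 array gave 906 to 1296 higher and 754 to 1167 lower.

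The 30 leading named genes kept their call in 351 of 357 values under alternatives that kept every array. The 6 exceptions were TIP4-2, AGO1D and AT5 with no replicate block, Cht10 with a pseudocount of 64, and MPK2 and Chib3H-h in the fit of all 16 arrays. Within the arrays of 1 replicate number, 60 of 60 values had the sign of the fit. The rule that chose these genes, 1 sign in all 4 pairs, fixed that outcome in advance. Of the other named genes past the threshold, WOX11 changed sign, to 0.00048 within the second arrays. Those that left the threshold in the fit of all 16 arrays were PM19L, SS2, SUT5, CML17, HOX4, PIP2-4, RBCS, HAK17, AKT1, MET1B, OSH1, IAA20, IAA4, NYC1 and CML1. With a pseudocount of 64 they were salT, DREB2D, GLUB-4, SS2, SUT5, CML17, RBCS, AKT1, MET1B, OSH1, OsC4, HSP22.3, IAA20, IAA4, NYC1, CML1 and CML24, and with a pseudocount of 1 SS1 and PIP2-4. With array weights they were salT, CLPB1, SS1, RBCS, HSP17.7, HSP18.0, NYC1, WOX11 and CML1, with a block by pair SS1 and NYC1, and with trended and robust moderation GLUB-4, IAA20 and CML1. With 4 residual degrees of freedom and a median standard error of 0.42, differences near 2-fold were at the limit of what these arrays resolve, and MAS5 signals of weak probe sets, such as those of Cht10 and GLUB-4, depend most on the pseudocount.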
